A study of Mus musculus with 20 samples.

Results

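CT26 tumours were grown in mice from cells that carried a vector or a POLE mutant, and the comparison described here asks in which genes the response to anti-PD-1 differed between these tumour types. For each gene the response of the vector tumours (anti-PD-1 minus PBS) was subtracted from the response of the POLE-mutant tumours (anti-PD-1 minus PBS), on log2(FPKM + 1) values, where FPKM is fragments scaled by transcript length and by the number of mapped fragments. This value is called the difference of responses below, and it is positive where the mutant tumours responded more upwards or less downwards than the vector tumours. It drew on all 20 libraries of the series: 5 of vector tumours given PBS, 5 of vector tumours given anti-PD-1, 5 of mutant tumours given PBS and 5 of mutant tumours given anti-PD-1. Of 55335 genes listed, the 13982 with at least 1 FPKM in 5 or more of the 20 libraries were tested. The genotype label reads control for the vector tumours and POLE mutant for the others, and no label names the strain, age or sex of the mice, the antibody dose or the day of collection. The labels name no separate clones, so the POLE mutant and any other difference between the cell pools cannot be told apart. The title of the series names CHEK2, whereas the sample labels and the design text name POLE, and the sample labels are followed here. The labels do not say which libraries came from separate mice, so the tests measure the spread between these libraries, which may be partly technical.

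CT26 cells derive from a colon carcinoma of the BALB/c strain and form tumours that immune cells enter. POLE is the catalytic subunit of DNA polymerase epsilon, which copies the leading strand and removes its own errors; mutants that lose this proofreading accumulate base substitutions. PD-1 is an inhibitory receptor on activated T cells, and antibodies that block it release T cells that recognise the tumour. Released CD8 T cells kill with perforin and granzymes and secrete interferon-gamma, which induces antigen presentation and chemokines in the surrounding cells. In tissue RNA, more cells of a type and more RNA per cell cannot be told apart, and this holds for every gene below.

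Before the results, 3 libraries stood apart. The mean Spearman correlation with the other libraries over the genes tested was 0.776 for vector anti-PD-1 replicate 1, 0.748 for mutant anti-PD-1 replicate 1 and 0.835 for mutant anti-PD-1 replicate 2, against 0.899 to 0.93 for the other libraries. Vector anti-PD-1 replicate 1 also had the highest summed FPKM, 566913 against a lowest of 328740, the highest share of small RNA genes, 8.6%, and the fewest genes at 1 FPKM, 11182 against up to 13769. Mutant PBS replicate 3 was closest to its own group, with a mean correlation of 0.934, but less close than the other mutant PBS libraries (0.953 to 0.967). Its mean correlation with the mutant anti-PD-1 libraries was 0.92, against 0.822 to 0.863 for the other mutant PBS libraries. Skeletal muscle genes also differed between libraries: the mean log2(FPKM + 1) of a muscle list was 0.58 to 1.0 in vector PBS, 0.56 to 4.25 in vector anti-PD-1, 0.56 to 5.16 in mutant PBS and 2.56 to 5.64 in mutant anti-PD-1 tumours. Of the 13 epithelial and colon markers checked against the tissue label, 4 passed the filter; Krt20, a keratin of differentiated intestinal epithelium, averaged 46.9 to 70.3 FPKM under PBS, whereas the adhesion gene Epcam averaged at most 0.305 FPKM in any group and the intestinal factor Cdx1 was listed at 0 in all groups.

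The response to anti-PD-1 differed between the tumour types in 1308 genes, 9.35% of those tested (limma, Benjamini-Hochberg adjusted p below 0.05). The difference was positive in 1035 of these genes (7.4% of those tested) and negative in 273 (1.95%), so 79.1% of the calls were positive. Each list count below is to be read against these shares. Within mutant tumours, anti-PD-1 raised 2226 genes (15.9%) and lowered 2045 (14.6%). Within vector tumours no gene passed (0, 0.0%). There 426 of the 13982 tested genes had an unadjusted p under 0.05, fewer than chance alone would give on average at that threshold. For the difference of responses 3779 genes had such a p. Under PBS 203 genes (1.45%) already differed between the tumour types. A vector response that misses the threshold does not show that the gene did not respond, and for this reason a larger or smaller response is stated here only where the difference of responses itself passed. The median difference over all tested genes was 0.01. It was 0.18 when the values were rescaled to a constant sum per library (TPM), and -0.11 under quantile normalization. The share of positive calls depended on such choices: it was 91.6% with TPM (869 positive, 80 negative), 59.9% with quantile normalization (1095 and 734) and 53.5% when libraries were weighted by their spread (1719 and 1495).

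**Figure D1:**
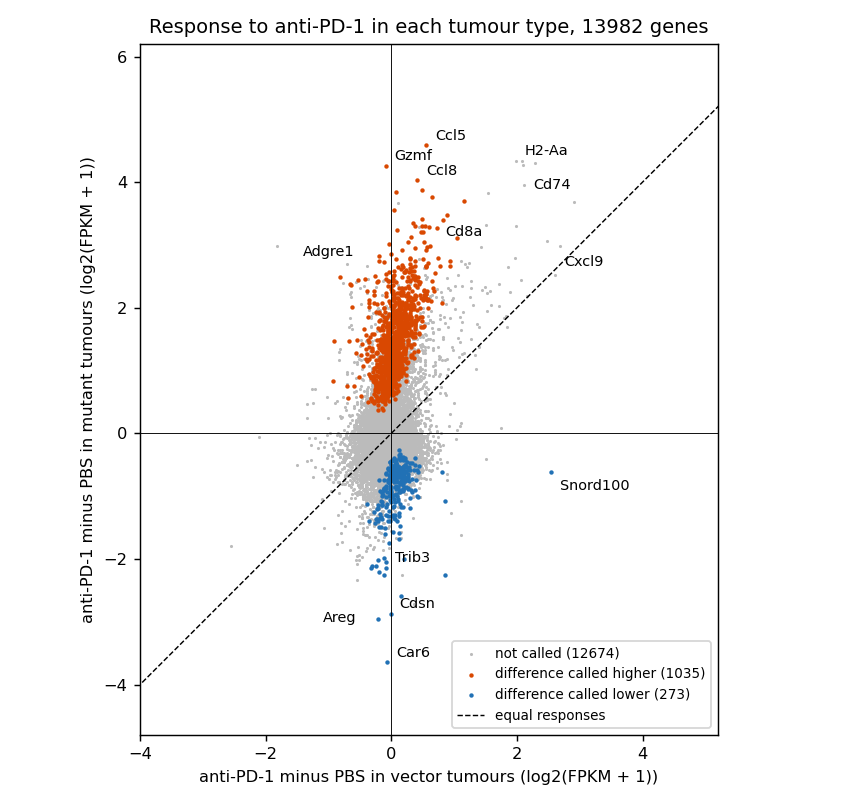
Anti-PD-1 response in mutant tumours (vertical axis) against the response in vector tumours (horizontal axis), each as a difference of mean log2(FPKM + 1), for the 13982 genes tested. Orange points are the 1035 genes with a positive difference of responses, blue points the 273 with a negative one, grey points the other genes, and the dashed line marks equal responses. Most coloured points lie above or below the line with a vector response near 0.

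The number of calls changed when libraries were left out. Without vector anti-PD-1 replicate 1 it was 2247 (1253 positive and 994 negative). The count fell to 849, 797 and 814 without vector PBS replicates 3, 4 and 5 in turn, to 745, 760 and 816 without mutant PBS replicates 1, 2 and 5, and to 782 and 688 without mutant anti-PD-1 replicates 1 and 2. Without the 3 least correlated libraries 387 genes were called, 325 of them among the 1308. When mutant PBS replicate 3 was removed as well, a setting added after seeing the data, the count was 2311 (1426 positive and 885 negative, 61.7% positive). The negative calls alone were 75 on removal of mutant anti-PD-1 replicate 2, 86 on removal of mutant PBS replicate 1, 87 on removal of mutant PBS replicate 2, 105 on removal of vector PBS replicate 4, 106 on removal of vector PBS replicate 5, 107 on removal of vector PBS replicate 3 or mutant anti-PD-1 replicate 1, 125 on removal of mutant PBS replicate 5, 130 on removal of vector PBS replicate 1, 145 on removal of mutant PBS replicate 4, 148 on removal of vector anti-PD-1 replicate 2, 177 on removal of vector anti-PD-1 replicate 4, 448 on removal of mutant PBS replicate 3, and 994 on removal of vector anti-PD-1 replicate 1. None of the 1308 genes changed the sign of its estimate in any alternative run that tested it. The stricter filters left some of the 1308 untested. The sample identifiers in the labels follow 2 styles, M with a number or a number alone, whose meaning is not given, and these sets share no library. Fitted separately, the M libraries gave 1156 calls and the number-only libraries 1164. The sets shared 346 calls in the same direction (29.9% of the M calls and 29.7% of the number-only calls) and 1 in opposite directions. The mutant anti-PD-1 group has 2 M libraries, replicates 1 and 2, which are the least correlated libraries of that group.

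**Figure D2:**
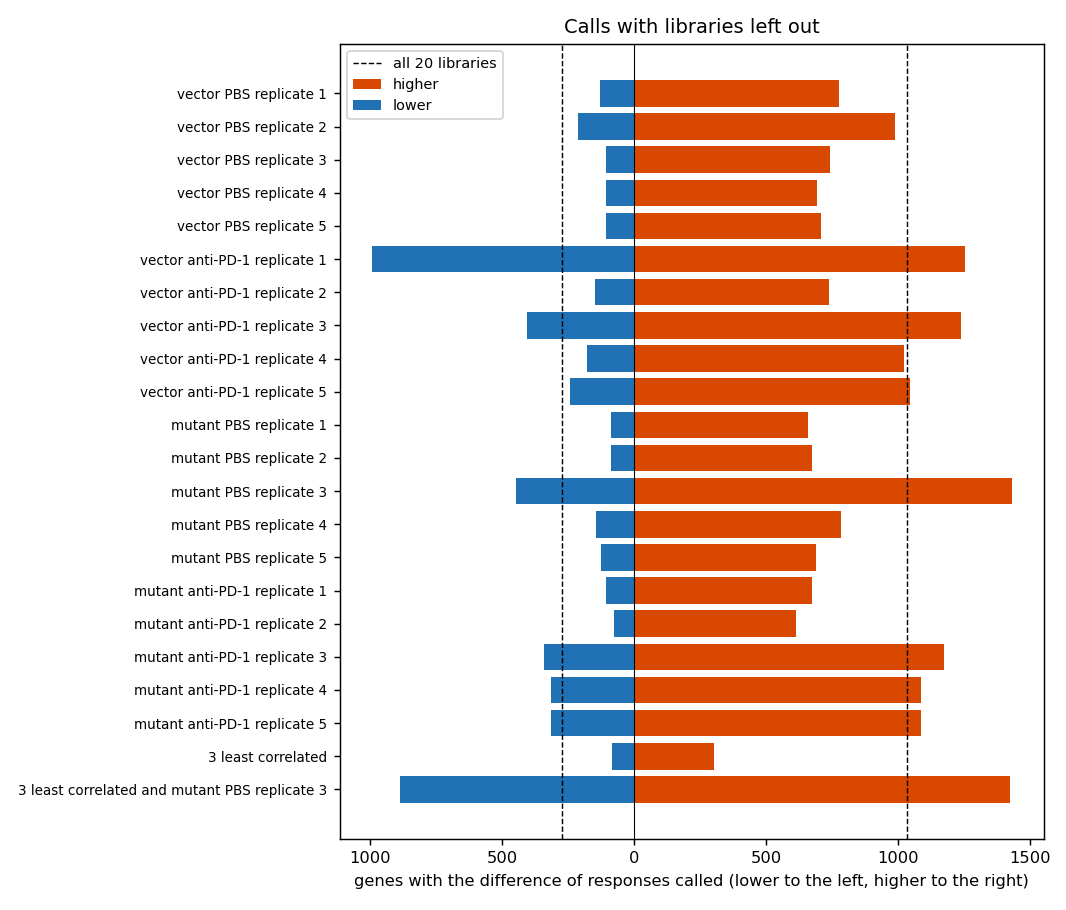
Number of genes whose difference of responses was called when each library was left out in turn, when the 3 least correlated libraries were left out, and when mutant PBS replicate 3 was left out with them. Orange bars count positive differences to the right, blue bars negative ones to the left, and the dashed lines are the counts with all 20 libraries, 1035 and 273. The fewest single-library calls came without mutant anti-PD-1 replicate 2 (688) and the most without vector anti-PD-1 replicate 1 (2247).

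Nearly all calls were genes that responded in mutant tumours with little estimated response in vector tumours on the log2(FPKM + 1) scale. Because the difference is computed from both responses, these counts describe the calls and are no further test. Of the 1035 positive calls, 1031 also rose significantly within mutant tumours. The estimated vector response lay within 0.5 log2 units of 0 in 978 of the 1035. It was higher by that much or more in 43 and lower by that much or more in 14. For the 43 the estimate was a rise in both types, larger in mutant tumours on this scale. Cd8a and Ifng were among the 43, although their ratios of group means, given below, were larger in vector tumours. No vector response passed, and 26 of the 1035 had an unadjusted limma p under 0.05 for it. The 95% interval of the vector response on this scale lay within 1 log2 unit of 0 in 910 genes. For the others a change of that size or more remained possible. The pseudocount compresses the vector response of the 325 positive calls with both vector means below 1 FPKM. A narrow interval there does not exclude a large relative change. The vector ratio of group means, anti-PD-1 over PBS, was 2 or more in 62 of the 316 of them with both ratios. Median responses of the positive calls were 1.43 in mutant and 0.04 in vector tumours. Of the 273 negative calls, 271 fell significantly within mutant tumours, and the vector response was within 0.5 of 0 in 269. Their median responses were -0.76 in mutant and 0.07 in vector tumours.

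On the log2(FPKM + 1) scale, all 16 of the 16 tested T cell core genes were called with a positive difference, against 7.4% of all tested genes. Only 2 of them, Lck and Thy1, averaged at least 1 FPKM in all 4 groups. Most of the others reached the filter through the mutant anti-PD-1 libraries where they are high, so the filter fixes this count in part and it is a description. Of all tested genes with both vector means below 1 FPKM, 35.2% were called with a positive difference. A pseudocount of 0.1 left 11 of the 16 T cell core calls. In all, 18 genes were listed, and Cd5 and Cd6 missed the filter. The median response of the list was 2.30 in mutant and 0.29 in vector tumours. Cd3e read 0.0677, 0.0753, 0.0633, 0.0199 and 0.0343 FPKM in vector PBS replicates 1 to 5 and 0.042, 0.376, 0.167, 0.551 and 0.234 FPKM in vector anti-PD-1 replicates 1 to 5. Cd3e in mutant tumours read 0.165, 0.475, 2.89, 0.152 and 0.0946 FPKM under PBS and 8.06, 6.54, 6.43, 6.22 and 5.29 FPKM under anti-PD-1. Cd3e (chr9:44998740-45009627, minus strand) encodes the epsilon chain of the T cell receptor complex. Every mutant anti-PD-1 library was above every other library, and among the others mutant PBS replicate 3 was highest. The difference of responses was 2.08 (SE 0.335, 95% interval 1.38 to 2.78, adjusted p = 0.0029), and the call held in 40 of 41 alternatives (adjusted p 1.65e-07 to 0.0728). Cd8a read 0, 0.0322, 0.128, 0.0297 and 0.0255 FPKM in vector PBS replicates 1 to 5 and 0.0906, 1.1, 0.121, 1.29 and 0.498 FPKM in vector anti-PD-1 replicates 1 to 5. Cd8a in mutant tumours read 0.636, 1.81, 7.12, 0.145 and 0.0879 FPKM under PBS and 14.9, 12.8, 16.5, 14.3 and 16 FPKM under anti-PD-1. Cd8a (chr6:71373427-71379173, plus strand) encodes the coreceptor chain of cytotoxic T cells. The 5 mutant anti-PD-1 libraries did not overlap any other group, and the difference was 2.40 (SE 0.517, 95% interval 1.32 to 3.49, adjusted p = 0.00899). The Cd8a call was lost with a pseudocount of 0.1 (adjusted p = 0.143) and among M libraries (adjusted p = 0.266), within a range of 2.36e-05 to 0.266 over all alternatives. As a ratio of group means, anti-PD-1 over PBS, Cd8a was 7.61 in mutant and 14.4 in vector tumours, the opposite order. The kinase gene Zap70 (1.85, SE 0.256, adjusted p = 0.00183) and the costimulatory receptor gene Cd28 (1.61, SE 0.211, adjusted p = 0.00183), both early components of T cell activation, had the smallest adjusted p of the list. The T cell core count was 13 without the 3 least correlated libraries, 16 without mutant PBS replicate 3, 7 among M libraries and 15 among number-only libraries.

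Cytotoxic effector genes moved in the same way, with 14 of 16 called with a positive difference, against 7.4% of all tested genes. Median responses were 2.34 and 0.43 in mutant and vector tumours. Of the 14 calls 6 averaged at least 1 FPKM in all 4 groups. The filter fixes this count in part, as for the T cell core. Ccl5 read 3.65, 2.65, 2.33, 1.5 and 0.886 FPKM in vector PBS replicates 1 to 5 and 6.79, 2.82, 2.43, 5.16 and 1.88 FPKM in vector anti-PD-1 replicates 1 to 5. Ccl5 in mutant tumours read 1.2, 1.71, 21.7, 1.4 and 1.3 FPKM under PBS and 144.1, 101.0, 64.1, 73.1 and 42.7 FPKM under anti-PD-1. Ccl5 (chr11:83525778-83530518, minus strand) encodes a chemokine that effector T cells and natural killer cells secrete. Mutant anti-PD-1 libraries were higher than all others, the nearest being mutant PBS replicate 3. The difference was 4.04 (SE 0.613, 95% interval 2.75 to 5.32, adjusted p = 0.00236), and it was called in 42 of 42 alternatives (adjusted p 1.65e-07 to 0.0499). Gzmb read 21.8, 14.4, 8.48, 3.06 and 7 FPKM in vector PBS replicates 1 to 5 and 7.28, 8, 7.19, 45.8 and 19.6 FPKM in vector anti-PD-1 replicates 1 to 5. Gzmb in mutant tumours read 1.03, 4.97, 26, 5.82 and 1.44 FPKM under PBS and 129.6, 65.1, 57.4, 65.6 and 63.8 FPKM under anti-PD-1. Granzyme B, the product of Gzmb (chr14:56258838-56262260, minus strand), is the protease that triggers death of the target cell. The highest library outside the mutant anti-PD-1 group was vector anti-PD-1 replicate 4, and all 5 mutant anti-PD-1 libraries exceeded it. The difference was 3.38 (SE 0.839, 95% interval 1.62 to 5.14, adjusted p = 0.0189). The call was lost among M libraries (adjusted p = 0.118), among number-only libraries (0.0661) and without the 3 least correlated libraries (0.0721), within a range of 0.00194 to 0.118 over all alternatives. Prf1, which encodes perforin (2.77, SE 0.698, adjusted p = 0.0199), Nkg7, a component of cytotoxic granules (3.11, SE 0.587, adjusted p = 0.00544), and Fasl, the ligand of the death receptor Fas (1.86, SE 0.309, adjusted p = 0.00308), were also called. The 2 members not called were Gzma, another granzyme (1.15, SE 0.654, adjusted p = 0.269), and Klrg1, a receptor of differentiated effector cells (0.96, SE 0.432, adjusted p = 0.161). The cytotoxic effector count was 9 without the 3 least correlated libraries, 3 among M libraries and 10 among number-only libraries.

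**Figure D3:**
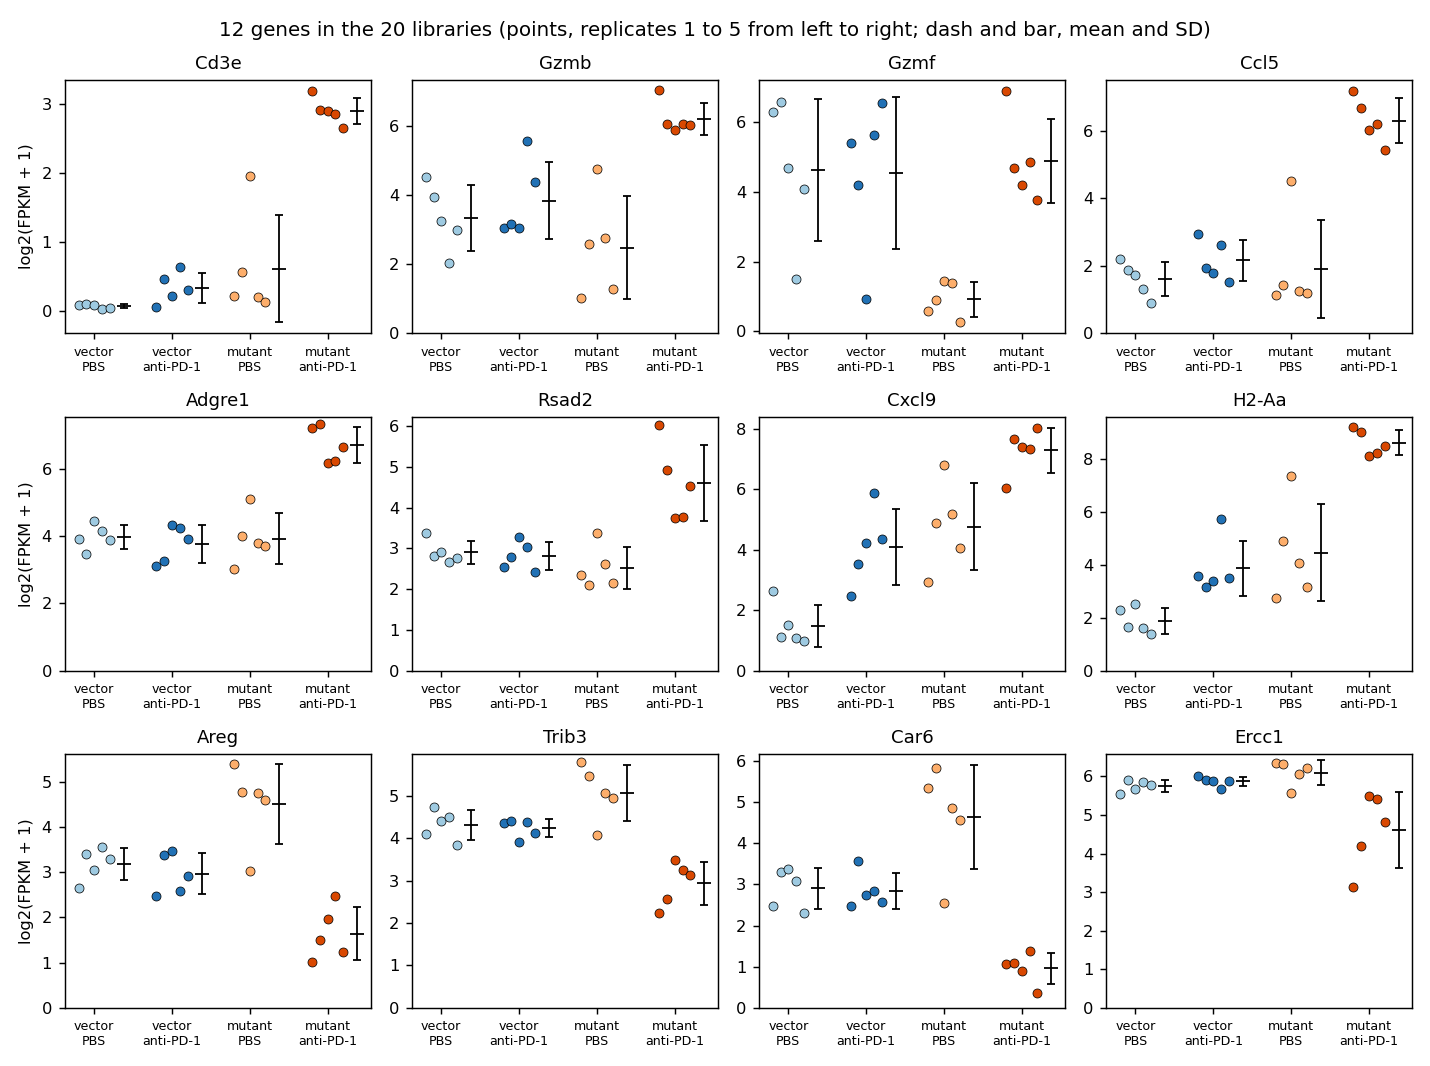
Log2(FPKM + 1) of 12 genes in each library, in 4 groups of 5; points are replicates 1 to 5 from left to right, and the dash and bar are the group mean and SD. Cd3e, Ccl5 and Adgre1 are high in all 5 mutant anti-PD-1 libraries, Gzmf is low in mutant PBS libraries, Cxcl9 and H2-Aa are also higher in vector anti-PD-1 than in vector PBS libraries, and Areg, Trib3 and Car6 are lowest in mutant anti-PD-1 libraries.

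The granzymes encoded beside Gzmb on chromosome 14 stood at low levels in mutant PBS tumours, and their positive differences were formed from that low starting level. Gzmf read 77.6, 93.8, 24.5, 1.85 and 16 FPKM in vector PBS replicates 1 to 5 and 41.4, 17.2, 0.89, 48.1 and 92.6 FPKM in vector anti-PD-1 replicates 1 to 5. Gzmf in mutant tumours read 0.494, 0.853, 1.73, 1.6 and 0.206 FPKM under PBS and 116.5, 24.5, 17.2, 28.1 and 12.7 FPKM under anti-PD-1. The mutant anti-PD-1 libraries lay within the range of the vector libraries except replicate 1, which was the highest of all, while every mutant PBS library was at or below 1.73 FPKM. For Gzmf (chr14:56205263-56211417, minus strand), a granzyme of activated killer cells, the difference was 4.36 (SE 1.19, 95% interval 1.86 to 6.85, adjusted p = 0.0291), the vector response was -0.09 and the mutant minus vector value under PBS was -3.71 (adjusted p = 0.0292). Of the 5 tested genes of this cluster 3 were called, against 7.4% of all tested genes with a positive difference. Gzmd (3.76, SE 1.05, adjusted p = 0.0321) and Gzme (3.51, SE 0.953, adjusted p = 0.0284) were called as well, whereas Gzmg (3.57, SE 1.24, adjusted p = 0.0729) and Gzmc (1.94, SE 0.953, adjusted p = 0.199) were not. These genes are closely related copies, so reads may be shared between them and the value of each is uncertain. None of the granzyme cluster beside Gzmb was called without the 3 least correlated libraries, among number-only libraries, or when any of vector PBS replicates 1, 2 or 5, vector anti-PD-1 replicate 2, mutant PBS replicates 1 or 2, or mutant anti-PD-1 replicate 1 was left out (0 of 5 each time), and 4 were called among M libraries.

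Most inhibitory receptor and exhaustion genes of T cells, 9 of 12 tested, had a called positive difference, against 7.4% of all tested genes. The target of the antibody was among them. Of the 9 calls 2 averaged at least 1 FPKM in all 4 groups, so the filter fixes this count in part too. Pdcd1 read 0.108, 0.283, 0.412, 0.0901 and 0.0772 FPKM in vector PBS replicates 1 to 5 and 0.131, 1.25, 0.343, 1.13 and 0.744 FPKM in vector anti-PD-1 replicates 1 to 5. Pdcd1 in mutant tumours read 0.832, 1.52, 6.36, 0.298 and 0.102 FPKM under PBS and 14.9, 17.6, 26.6, 19.8 and 19.6 FPKM under anti-PD-1. Pdcd1 (chr1:94038305-94052553, minus strand) encodes PD-1 itself. The lowest mutant anti-PD-1 library read 14.9 FPKM, and the highest other library, mutant PBS replicate 3, read 6.36 FPKM. The difference was 2.81 (SE 0.494, 95% interval 1.78 to 3.85, adjusted p = 0.00378), with the call kept in 40 of 41 alternatives (adjusted p 1.55e-06 to 0.109). The count of the inhibitory receptors and exhaustion list was 9 whichever single library was left out and 6 without the 3 least correlated. Havcr2, which encodes TIM-3 (1.97, SE 0.325, adjusted p = 0.00308), Lag3 (2.14, SE 0.368, adjusted p = 0.00355), Ctla4 (1.67, SE 0.288, adjusted p = 0.00363) and Cd96 (1.91, SE 0.274, adjusted p = 0.00214) were among them. Tigit (0.25, SE 0.423, adjusted p = 0.759), another inhibitory receptor, Prdm1 (0.78, SE 0.42, adjusted p = 0.242), which encodes Blimp-1, and Nr4a2 (-0.49, SE 0.264, adjusted p = 0.243), an orphan nuclear receptor gene, did not pass.

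Ligands of these receptors divided. Pdcd1lg2, which encodes the PD-1 ligand PD-L2, averaged 0.649, 0.581, 1.22 and 10.6 FPKM in vector PBS, vector anti-PD-1, mutant PBS and mutant anti-PD-1 tumours, and its difference of responses was 2.60 (SE 0.394, 95% interval 1.77 to 3.42, adjusted p = 0.00236). Cd274, which encodes the other PD-1 ligand, PD-L1, read 66.9 to 79.6 FPKM in mutant anti-PD-1 and 7.86 to 32.2 in mutant PBS libraries, which do not overlap. In vector libraries it read 1.22 to 19 under anti-PD-1 and 3.69 to 5.31 under PBS. Its difference did not pass, at 1.55 (SE 0.604, 95% interval 0.28 to 2.82, adjusted p = 0.108), and passed in 7 of 42 alternatives. Cd86, a costimulatory ligand of CD28 and CTLA-4 (1.01, SE 0.252, adjusted p = 0.0195), Vsir, which encodes VISTA (1.73, SE 0.466, adjusted p = 0.0278), and Lgals9, which encodes galectin-9 (0.99, SE 0.303, adjusted p = 0.0467), passed. Of the 8 checkpoint ligands 4 were called, against 7.4% of all tested genes with a positive difference. The count was 2 when vector PBS replicate 4, vector anti-PD-1 replicate 2, mutant PBS replicates 1, 4 or 5, or mutant anti-PD-1 replicate 2 was left out.

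Natural killer receptors, regulatory T cell genes, B cell genes and dendritic cell genes were mostly near or below 1 FPKM outside the mutant anti-PD-1 group. Many reached the filter through the mutant anti-PD-1 libraries, so the filter fixes the counts of these lists in part and they are descriptions. Positive calls made up 7.4% of all tested genes and 35.2% of those with both vector means below 1 FPKM. Calls with at least 1 FPKM on average in all 4 groups numbered 2 in the natural killer cell list. They numbered 0 in the regulatory T cell, B and plasma cell and dendritic cell lists. Of the natural killer cell list 6 of 7 tested genes had a positive difference, led by Klrd1 (CD94; means 1.07, 1.62, 2.45 and 21.1 FPKM in the same order; 2.92, SE 0.491, adjusted p = 0.0032) and its partner Klrc1 (NKG2A; 2.57, SE 0.435, adjusted p = 0.0034). Activated CD8 T cells express both, and Klr genes are similar enough to share reads. Ncr1, a receptor found mainly on natural killer cells and other innate lymphocytes, had a difference of 1.71, SE 0.443, adjusted p = 0.0229. In the regulatory T cell list 4 of 5 tested genes were called: Tnfrsf18, which encodes GITR (1.46, SE 0.323, adjusted p = 0.0104), Il10, which encodes an anti-inflammatory cytokine (1.73, SE 0.406, adjusted p = 0.0141), Il2ra, which encodes the alpha chain of the interleukin-2 receptor (1.04, SE 0.262, adjusted p = 0.0198), and Tnfrsf4, which encodes OX40 (0.90, SE 0.238, adjusted p = 0.0262). The tested member not called, Tnfrsf9 (-0.01, SE 0.511, adjusted p = 0.991), averaged 23.9, 25.6, 26.3 and 33.5 FPKM in the 4 groups. It alone of the tested members averaged at least 1 FPKM in all 4 groups. Effector cells also express the called genes. Foxp3, the lineage factor, averaged 0.0669, 0.128, 0.141 and 0.853 FPKM in the 4 groups and was below the filter. B and plasma cell genes gave 3 calls of 6 (Cd22, 1.64, SE 0.259, adjusted p = 0.00272; Jchain, 1.41, SE 0.404, adjusted p = 0.036; Cd79b, 1.19, SE 0.346, adjusted p = 0.0384), a count that was 5 without mutant PBS replicate 3 and 1 when any vector PBS library but replicate 2, vector anti-PD-1 replicates 2 or 4, another mutant PBS library, or mutant anti-PD-1 replicates 1 or 2 was left out. Dendritic cell genes gave 3 of 9: Xcr1, a chemokine receptor of cross-presenting dendritic cells (1.57, SE 0.364, adjusted p = 0.0131), Ccr7, the lymph node homing receptor (1.39, SE 0.35, adjusted p = 0.0197), and Itgae, the CD103 integrin chain (0.88, SE 0.261, adjusted p = 0.042). Without mutant PBS replicate 3 the dendritic cell count was 7. None of the regulatory T cell list passed without the 3 least correlated libraries (0), against 3 of the natural killer cell list.

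Of 20 macrophage and monocyte genes 14 had a called positive difference with all libraries, against 7.4% of all tested genes, and 4 without the 3 least correlated libraries. Adgre1 read 14.1, 10, 21, 16.7 and 13.8 FPKM in vector PBS replicates 1 to 5 and 7.69, 8.52, 19.2, 17.9 and 14.1 FPKM in vector anti-PD-1 replicates 1 to 5. Adgre1 in mutant tumours read 7.12, 14.9, 33.6, 12.8 and 12 FPKM under PBS and 146.8, 159.7, 70.4, 74.6 and 99 FPKM under anti-PD-1. Adgre1 (chr17:57358691-57483527, plus strand) encodes F4/80, a surface protein of mouse macrophages. The mutant anti-PD-1 libraries were the 5 highest, and the vector groups overlapped fully. The difference of responses was 3.02 (SE 0.489, 95% interval 2.0 to 4.05, adjusted p = 0.0029), the vector response was -0.20, and the call was kept in 42 of 42 alternatives (adjusted p 8.27e-05 to 0.0297). All 14 calls of the macrophage and monocyte list had at least 1 FPKM on average in each group, and the median response of the list was 1.99 in mutant against 0.07 in vector tumours. Mertk, a receptor for the clearance of dead cells (2.28, SE 0.334, adjusted p = 0.00214), Ms4a7 (2.55, SE 0.511, adjusted p = 0.00643) and Lyz2, the macrophage lysozyme (1.96, SE 0.389, adjusted p = 0.0061), kept the call in every alternative run. Lyz2 averaged 994.9, 954.1, 792.7 and 2834.6 FPKM in vector PBS, vector anti-PD-1, mutant PBS and mutant anti-PD-1 tumours. Not called were the scavenger receptor genes Mrc1 (1.34, SE 0.533, adjusted p = 0.114) and Cd163 (1.62, SE 0.871, adjusted p = 0.242), the arginine-degrading enzyme gene Arg1 (0.69, SE 0.672, adjusted p = 0.558), the integrin gene Itgam (0.37, SE 0.495, adjusted p = 0.685), Trem2 (1.46, SE 0.458, adjusted p = 0.0519) and the monocyte chemokine receptor gene Ccr2 (1.34, SE 0.496, adjusted p = 0.092). The macrophage and monocyte count was 16 when mutant PBS replicate 3 was removed with the 3 least correlated libraries, 11 among M libraries and 9 among number-only libraries.

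Chemokines, complement and lysosomal proteases, products in large part of myeloid cells, contained further calls. The counts of these lists stand against 7.4% of all tested genes called with a positive difference. Ccl8, a monocyte chemoattractant, read 523.7 to 2712.4 FPKM in mutant anti-PD-1 libraries and 32 to 272.7 in vector anti-PD-1 libraries, with a difference of 3.63 (SE 0.855, 95% interval 1.83 to 5.42, adjusted p = 0.0144). Cxcl12, which attracts cells bearing CXCR4 (2.65, SE 0.532, adjusted p = 0.00643), Cxcl13, the B cell chemoattractant (2.82, SE 0.631, adjusted p = 0.0109), Ccl4 (1.83, SE 0.414, adjusted p = 0.0116) and Cxcl16 (1.30, SE 0.312, adjusted p = 0.0158) were the other chemokine calls, 5 of 14 in all. Cxcl13 was listed at 0 in every vector PBS library. Ccl2 (0.44, SE 0.244, adjusted p = 0.262), Ccl7 (0.55, SE 0.368, adjusted p = 0.354) and Ccl12 (-0.22, SE 0.403, adjusted p = 0.783), which recruit monocytes through CCR2, were not called. In the complement list 10 of 12 genes were called, with median responses of 2.26 and 0.06. C3ar1, the C3a receptor, kept its call in 42 of 42 alternatives (adjusted p 0.0014 to 0.0454) (1.80, SE 0.38, adjusted p = 0.00828). Cfb, factor B of the alternative pathway, read 72.8 to 173.7 FPKM in mutant anti-PD-1 libraries and at most 56.5 elsewhere (2.79, SE 0.682, adjusted p = 0.0174). The complement count was 1 without the 3 least correlated libraries, 6 without mutant PBS replicate 5 and 6 without mutant anti-PD-1 replicate 1. Of the lysosomal cathepsin list 6 of 14 were called, led by Ctss, the protease that trims the invariant chain of MHC class II (2.36, SE 0.471, adjusted p = 0.00636), and Ctsb (1.52, SE 0.375, adjusted p = 0.0179). Ctsl (-0.02, SE 0.389, adjusted p = 0.984) and Lamp1 (0.56, SE 0.262, adjusted p = 0.178) were not. Leaving out mutant PBS replicate 1 or mutant anti-PD-1 replicate 2 left 3 and 2 lysosomal cathepsin calls. Outside the lists, the lipid transfer protein gene Pltp (3.15, SE 0.635, adjusted p = 0.00651) and the myeloid receptor gene Cd300ld5 (3.31, SE 0.683, adjusted p = 0.00725), whose family members share sequence, were among the largest positive differences.

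Genes of the type I interferon response rose with anti-PD-1 in mutant tumours and had a small median response in vector tumours. Of 24 tested genes 23 were called higher within mutant tumours. For the difference of responses 13 passed, against 7.4% of all tested genes, all 13 with at least 1 FPKM on average in each group. The median response was 1.56 in mutant and 0.23 in vector tumours. Rsad2 read 9.41, 6.02, 6.49, 5.3 and 5.84 FPKM in vector PBS replicates 1 to 5 and 4.87, 5.94, 8.68, 7.18 and 4.31 FPKM in vector anti-PD-1 replicates 1 to 5. Rsad2 in mutant tumours read 4.08, 3.32, 9.35, 5.15 and 3.4 FPKM under PBS and 64.1, 29.5, 12.5, 12.7 and 22.2 FPKM under anti-PD-1. Rsad2 (chr12:26442746-26456452, minus strand) encodes viperin, an antiviral enzyme. All mutant anti-PD-1 libraries lay above all other libraries, though the lowest of them, 12.5 FPKM, was close to the highest of the others, 9.41 FPKM. The difference was 2.28 (SE 0.446, 95% interval 1.34 to 3.21, adjusted p = 0.00591). Ifit3 (1.79, SE 0.413, adjusted p = 0.0127), Ifit2 (1.88, SE 0.436, adjusted p = 0.0131) and Mx2 (1.48, SE 0.335, adjusted p = 0.0114), all antiviral effectors, were called as well. Isg15 (0.91, SE 0.422, adjusted p = 0.174), a ubiquitin-like modifier, Bst2 (0.53, SE 0.379, adjusted p = 0.393), which encodes tetherin, Irf9 (0.12, SE 0.292, adjusted p = 0.842) and Stat2 (1.10, SE 0.425, adjusted p = 0.104), subunits of the transcription factor of this response, were not. The type I interferon response count varied between 2 without the 3 least correlated libraries and 22 when mutant PBS replicate 3 was removed with them. It was 7 when vector PBS replicate 1 or mutant PBS replicates 1, 2 or 5 were left out, 2 among M libraries and 5 among number-only libraries.

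The promoters of Rsad2 and Ifit3 are shown because both genes carry the letters to which interferon-activated factors are known to bind. The core of the interferon-stimulated response element was searched as GAAANNGAA on both strands, in the window from 250 bases before to 50 bases after each annotated start. RefSeq sequences of GRCm38.p6 are given in the direction of transcription, with matches on either strand in capitals. Rsad2 lies on the minus strand of chr12:26456403-26456702 with a match that begins at position -119 from the start site, and Ifit3 on the plus strand of chr19:34583279-34583578 with 3 matches.
Rsad2: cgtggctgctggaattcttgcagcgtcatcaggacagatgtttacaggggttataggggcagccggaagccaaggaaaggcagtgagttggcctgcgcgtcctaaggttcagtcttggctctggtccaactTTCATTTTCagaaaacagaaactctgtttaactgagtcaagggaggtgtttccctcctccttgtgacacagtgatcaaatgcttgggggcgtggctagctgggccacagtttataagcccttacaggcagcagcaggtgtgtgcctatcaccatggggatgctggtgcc
Ifit3: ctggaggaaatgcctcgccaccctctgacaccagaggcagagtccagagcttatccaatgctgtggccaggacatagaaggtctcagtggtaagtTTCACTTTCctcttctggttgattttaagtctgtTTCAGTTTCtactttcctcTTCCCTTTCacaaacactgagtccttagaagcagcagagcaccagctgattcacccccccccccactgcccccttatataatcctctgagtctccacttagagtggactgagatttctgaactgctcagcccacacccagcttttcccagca
The letters GAAANNGAA were present in 11 of 18 tested type I interferon genes with a promoter in the table (61.1%), in 13 of 15 genes of the interferon-gamma list (86.7%) and in 8.56% of all 32851 promoters. The motif was therefore common in both interferon lists, of which the type I list had 13 called differences and the interferon-gamma list 1. A match of letters is a description and not evidence of binding in these tumours.

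Interferon-gamma response genes, by contrast, had sizeable estimated responses in both tumour types. Within mutant tumours 23 of 25 rose, with a median of 1.87. The median vector response was 0.84, and 10 of the genes had an unadjusted p under 0.05 there. Under PBS the median mutant minus vector value was already 1.65, and 7 of the 25 genes were called higher in mutant tumours. Cxcl9 read 5.27, 1.18, 1.87, 1.13 and 0.995 FPKM in vector PBS replicates 1 to 5 and 4.5, 10.6, 17.9, 57.5 and 19.4 FPKM in vector anti-PD-1 replicates 1 to 5. Cxcl9 in mutant tumours read 6.58, 28.5, 111.5, 35.4 and 15.6 FPKM under PBS and 65.6, 200.8, 167.6, 161.5 and 259.7 FPKM under anti-PD-1. Cxcl9 (chr5:92321347-92328079, minus strand) encodes a chemokine that recruits CXCR3-bearing T cells. Vector anti-PD-1 libraries exceeded the vector PBS libraries except for replicate 1, and mutant PBS libraries were already higher than the vector PBS libraries. The response was 2.52 in mutant and 2.61 in vector tumours, and their difference, -0.09 (SE 0.914, 95% interval -2.01 to 1.82, adjusted p = 0.967), leaves room for a difference of more than 1 log2 unit in either direction. Its sign was not stable: it was 0.88 with a pseudocount of 10 and 0.40 without mutant PBS replicate 3. Irf1 (0.22, SE 0.682, adjusted p = 0.878) and Cxcl10 (0.96, SE 0.643, adjusted p = 0.359) did not pass either. By estimate the difference was above 0 in 24 of the 25 interferon-gamma response genes, Cxcl9 being the exception. Its median over the list was 0.89, against 0.01 over all tested genes. A difference that did not pass does not show equal responses. In the interferon-gamma response list 1 of 25 genes was called with a positive difference, against 7.4% of all tested genes. It was Ciita, the activator of MHC class II genes, with means of 0.0644, 0.45, 1.41 and 9.36 FPKM (2.10, SE 0.476, adjusted p = 0.0119). Its call was lost with a pseudocount of 0.1 (adjusted p = 0.121, within 2.97e-05 to 0.241 over the alternatives). The interferon-gamma response list had 3 calls without mutant PBS replicate 3 and 7 without this and the 3 least correlated libraries.

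MHC class II genes had the largest vector response of the immune lists and a count of calls that 1 library changed from none to all. The vector response was 1.98 in the median of 7 genes, all with an unadjusted p under 0.05, and the mutant response was 3.95. The tumour types did not start from the same level. Under PBS the median mutant minus vector value was 2.56, and 5 of the 7 genes were called higher in mutant tumours. H2-Aa read 3.83, 2.13, 4.75, 2.04 and 1.59 FPKM in vector PBS replicates 1 to 5 and 10.9, 8, 9.44, 51.2 and 10.2 FPKM in vector anti-PD-1 replicates 1 to 5. H2-Aa in mutant tumours read 5.73, 28.8, 162.6, 15.7 and 7.82 FPKM under PBS and 579.6, 517.0, 275.0, 298.0 and 357.1 FPKM under anti-PD-1. H2-Aa (chr17:34282744-34287823, minus strand) encodes the alpha chain of the I-A molecule, which presents peptides to CD4 T cells. Each vector anti-PD-1 library exceeded each vector PBS library, and mutant PBS replicate 3 came nearest to the mutant anti-PD-1 libraries. The difference of responses was 2.36 (SE 0.84, 95% interval 0.60 to 4.13, adjusted p = 0.0793) and did not pass. It was 2.76 with an adjusted p of 0.0192 without the 3 least correlated libraries and mutant PBS replicate 3, and its adjusted p ran from 0.00241 to 0.422 over the alternatives. No MHC class II gene was called by limma with all libraries, although 6 had an unadjusted p under 0.05; 7 of 7 were called without mutant PBS replicate 3, 3 without vector anti-PD-1 replicate 4, 7 among number-only libraries and 0 among M libraries. MHC class I genes gave 3 positive calls of 19, against 7.4% of all tested genes. All were nonclassical: H2-T23, which encodes Qa-1 and presents peptides to NKG2A (1.89, SE 0.437, adjusted p = 0.0131), H2-Q7 (0.95, SE 0.191, adjusted p = 0.00643) and H2-Q6 (1.40, SE 0.402, adjusted p = 0.0358). The classical gene H2-K1 (0.79, SE 0.378, adjusted p = 0.184), B2m, the light chain (0.69, SE 0.239, adjusted p = 0.0716), and Psmb8, an immunoproteasome subunit (1.34, SE 0.426, adjusted p = 0.0541), did not pass. The MHC class I count was 8 without mutant PBS replicate 3, 5 without vector anti-PD-1 replicate 4, and reached 15 without mutant PBS replicate 3 and the 3 least correlated libraries. H2 genes are polymorphic and the H2-Q genes near-identical, and BALB/c reads were set against the mm10 genome of another strain, so their levels are uncertain.

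All 273 genes with a negative difference had a negative estimated response in mutant tumours, mostly with little estimated change in vector tumours. Under PBS 217 of them stood higher in mutant than in vector tumours by estimate (79.5%, against 50.3% of all tested genes). The PBS difference was called in 15 of the 273, and all 15 were higher in mutant tumours. PBS levels enter the difference of responses too, so these counts are a description. Areg read 5.24, 9.5, 7.23, 10.8 and 8.76 FPKM in vector PBS replicates 1 to 5 and 4.56, 9.45, 9.97, 4.98 and 6.59 FPKM in vector anti-PD-1 replicates 1 to 5. Areg in mutant tumours read 41, 26.4, 7.08, 26 and 23 FPKM under PBS and 1.02, 1.82, 2.92, 4.51 and 1.34 FPKM under anti-PD-1. Areg (chr5:91139599-91148432, plus strand) encodes amphiregulin, a ligand of the EGF receptor. The mutant anti-PD-1 libraries were the 5 lowest, and mutant PBS replicate 3 lay among the vector libraries rather than with the rest of its group. The difference was -2.74 (SE 0.481, 95% interval -3.74 to -1.73, adjusted p = 0.00378), the mutant response -2.95, and the call was kept in 42 of 42 alternatives (adjusted p 5.3e-05 to 0.0483). Car6 read 4.55, 8.85, 9.44, 7.51 and 3.9 FPKM in vector PBS replicates 1 to 5 and 4.57, 10.9, 5.73, 6.13 and 4.94 FPKM in vector anti-PD-1 replicates 1 to 5. Car6 in mutant tumours read 40, 56, 4.81, 27.9 and 22.8 FPKM under PBS and 1.1, 1.13, 0.857, 1.62 and 0.278 FPKM under anti-PD-1. Car6 (chr4:150187015-150201332, minus strand) encodes a secreted carbonic anhydrase. Again mutant anti-PD-1 libraries were lowest and mutant PBS replicate 3 lay among the vector libraries, while the other mutant PBS libraries were the highest. The difference was -3.57 (SE 0.624, 95% interval -4.88 to -2.26, adjusted p = 0.00378), with the call kept in 40 of 41 alternatives (adjusted p 1.85e-06 to 0.0782). Angptl6, a secreted angiopoietin-like protein (-2.73, SE 0.438, adjusted p = 0.0029), Soat2, which esterifies cholesterol (-2.14, SE 0.378, adjusted p = 0.00387), Cdsn, a corneodesmosome protein of keratinising epithelium (-2.86, SE 0.547, adjusted p = 0.00563), and Avil, an actin-binding protein (-2.01, SE 0.526, adjusted p = 0.0243), were called with a negative difference too. Hbegf, another EGF receptor ligand (-1.81, SE 0.557, adjusted p = 0.0484), was the other call among 17 immediate early and growth factor genes, and kept the call in 13 of 42 alternatives (adjusted p 0.0186 to 0.196). The 2 calls of this list stand against 1.95% of all tested genes with a negative difference. Fos (1.74, SE 0.738, adjusted p = 0.139), Egr1 (-0.85, SE 0.58, adjusted p = 0.368) and Myc (-1.09, SE 0.354, adjusted p = 0.0589), transcription factors of that immediate early list, did not pass. Left-out libraries changed its count of 2: it was 4 when vector anti-PD-1 replicate 1 or mutant PBS replicate 3 was left out, and 1 when any other library was left out except vector PBS replicate 2 and mutant anti-PD-1 replicates 3 and 4.

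Target genes of ATF4, the transcription factor that cells activate on amino acid shortage and endoplasmic reticulum stress, had the most negative calls of any list. Of 18 tested genes 13 fell within mutant tumours and 5 were called for the difference, against 1.95% of all genes. Median responses were -1.04 in mutant and -0.09 in vector tumours. Trib3 read 16.1, 25.4, 20.2, 21.7 and 13.2 FPKM in vector PBS replicates 1 to 5 and 19.5, 20.3, 14, 19.8 and 16.3 FPKM in vector anti-PD-1 replicates 1 to 5. Trib3 in mutant tumours read 54.9, 43.5, 15.8, 32.4 and 29.7 FPKM under PBS and 3.73, 4.93, 10.1, 8.54 and 7.8 FPKM under anti-PD-1. Trib3 (chr2:152337422-152344032, minus strand) encodes a pseudokinase that restrains ATF4. The 5 mutant anti-PD-1 libraries were the lowest of all, the vector groups overlapped, and 4 mutant PBS libraries were the highest, replicate 3 being the exception. The difference was -2.07 (SE 0.403, 95% interval -2.91 to -1.22, adjusted p = 0.00581), with the call kept in 41 of 42 alternatives (adjusted p 0.000285 to 0.0516). Chac1, which degrades glutathione (-1.97, SE 0.389, adjusted p = 0.0061), Ddit3, which encodes CHOP (-1.40, SE 0.41, adjusted p = 0.04), and the mitochondrial folate enzymes Shmt2 (-1.21, SE 0.323, adjusted p = 0.0267) and Mthfd2 (-1.16, SE 0.351, adjusted p = 0.0444) were the other calls. Asns, which makes asparagine (-1.59, SE 0.52, adjusted p = 0.0604), and Atf4 itself (-0.54, SE 0.368, adjusted p = 0.362) did not pass, and neither did Atf3, whose estimate was positive (1.48, SE 0.519, adjusted p = 0.0756). In the ATF4 stress response list 1 gene was called without the 3 least correlated libraries, 9 among M libraries and 1 among number-only libraries. Leaving out 1 library gave 2 calls without vector PBS replicates 3 or 5, mutant PBS replicates 1 or 2 or mutant anti-PD-1 replicate 2, 3 without vector PBS replicates 1 or 4, vector anti-PD-1 replicate 2, mutant PBS replicate 4 or mutant anti-PD-1 replicate 1, 8 without mutant anti-PD-1 replicate 5, and for vector anti-PD-1 replicate 3 the count was 7.

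The promoters of Trib3 and Chac1 are shown because both hold the composite ATF and C/EBP element that ATF4 is known to bind, searched as TGATGNAA on both strands in the same window. Capitals mark the match, on either strand, in the RefSeq sequence of GRCm38.p6, in the direction of transcription. Trib3 lies on the minus strand of chr2:152344011-152344310, with the match at position 15 after the start site, and Chac1 on the plus strand of chr2:119350992-119351291, with the match at position -193.
Trib3: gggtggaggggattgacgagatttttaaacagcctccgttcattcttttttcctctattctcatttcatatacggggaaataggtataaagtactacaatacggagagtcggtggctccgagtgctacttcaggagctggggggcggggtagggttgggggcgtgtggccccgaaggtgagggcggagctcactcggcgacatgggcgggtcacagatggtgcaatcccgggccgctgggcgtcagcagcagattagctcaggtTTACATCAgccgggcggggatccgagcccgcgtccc
Chac1: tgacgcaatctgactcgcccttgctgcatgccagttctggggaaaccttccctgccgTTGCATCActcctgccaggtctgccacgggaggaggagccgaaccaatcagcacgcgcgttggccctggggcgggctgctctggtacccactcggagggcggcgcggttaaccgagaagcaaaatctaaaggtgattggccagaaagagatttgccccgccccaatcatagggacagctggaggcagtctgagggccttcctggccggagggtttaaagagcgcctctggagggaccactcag
TGATGNAA was present in 7 of 17 tested ATF4 list genes with a listed promoter (41.2%), in 2.81% of all tested genes with one and in 3.97% of all promoters. Genes called with a negative difference held it in 4.02% and those with a positive one in 4.31%. Of the 5 called ATF4 genes, Trib3 and Chac1 were the 2 that held it in this window. The list was made of ATF4 targets, and a match of letters is a description and not evidence of binding in these tumours.

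DNA repair and replication genes bear on the POLE mutant. Of 25 tested DNA repair genes 2 had a called negative difference and 0 a positive one, against 1.95% and 7.4% of all tested genes. Pole read 6.45, 7.38, 9.5, 9.35 and 10.4 FPKM in vector PBS replicates 1 to 5 and 4.05, 7.12, 10, 7.32 and 9.02 FPKM in vector anti-PD-1 replicates 1 to 5. Pole in mutant tumours read 4.14, 4.63, 5.27, 6.35 and 5.73 FPKM under PBS and 1.3, 3.4, 4.75, 4.52 and 5.71 FPKM under anti-PD-1. Pole (chr5:110286306-110337474, plus strand) had no called difference of responses (-0.31, SE 0.258, adjusted p = 0.479). Within each tumour type the PBS and anti-PD-1 libraries overlapped, and all mutant libraries lay below all vector PBS libraries. These values do not separate mutant from endogenous transcripts, and Chek2 likewise did not pass (-0.07, SE 0.189, adjusted p = 0.853). Ercc1 read 45.7, 59.5, 49.8, 56.5 and 53.9 FPKM in vector PBS replicates 1 to 5 and 63.9, 58.7, 58, 49.9 and 57.7 FPKM in vector anti-PD-1 replicates 1 to 5. Ercc1 in mutant tumours read 80.1, 78.8, 46.6, 65.5 and 73.5 FPKM under PBS and 7.78, 17.3, 44.1, 41.7 and 27.4 FPKM under anti-PD-1. Ercc1 (chr7:19344778-19356524, plus strand) encodes a subunit of the nuclease of nucleotide excision repair. Mutant anti-PD-1 libraries were the 5 lowest and the vector groups overlapped. The difference was -1.69 (SE 0.405, 95% interval -2.54 to -0.84, adjusted p = 0.0153), kept in 41 of 42 alternatives (adjusted p 0.00233 to 0.07). Xrcc1, a scaffold of base excision repair (-0.56, SE 0.161, adjusted p = 0.0371), was the other DNA repair call and kept its call in 25 of 42 alternatives (adjusted p 0.00121 to 0.136). The DNA repair count was 4 without mutant anti-PD-1 replicate 5 and 1 without vector PBS replicates 1, 3, 4 or 5, mutant PBS replicates 1, 2, 4 or 5 or mutant anti-PD-1 replicates 1 or 2. None of 25 genes of DNA polymerases and replication and none of 22 mitosis genes was called by limma with all libraries (unadjusted p under 0.05 in 8 and 0), although negative replication calls were 1 on removal of vector anti-PD-1 replicates 3 or 5, mutant PBS replicate 3 or mutant anti-PD-1 replicates 3 or 5, and 2 on removal of vector anti-PD-1 replicate 1. The median difference of the mitosis list was -0.18 and became 0.24 without the 3 least correlated libraries. Among 19 p53 targets 2 had a positive difference, a share near the 7.4% of all tested genes: Sesn1 (1.5, SE 0.429, adjusted p = 0.0352) and Btg2 (1.28, SE 0.391, adjusted p = 0.0475). A negative difference was called in 2, against 1.95% of all tested genes: Bbc3, which encodes PUMA (-0.88, SE 0.233, adjusted p = 0.0253), and Phlda3 (-0.74, SE 0.212, adjusted p = 0.0351). Cdkn1a, which encodes p21, did not pass (-0.64, SE 0.333, adjusted p = 0.222). Leaving out 1 library changed the p53 targets count: positive calls were 0 on removal of vector PBS replicates 1, 3, 4 or 5, vector anti-PD-1 replicate 2, mutant PBS replicates 1, 2, 4 or 5 or mutant anti-PD-1 replicates 1 or 2, 1 on removal of vector PBS replicate 2 or vector anti-PD-1 replicate 4, 4 on removal of mutant anti-PD-1 replicate 5, and 5 on removal of vector anti-PD-1 replicate 3, and negative calls were 0 on removal of vector PBS replicate 3, mutant PBS replicate 2 or mutant anti-PD-1 replicate 2, 1 on removal of vector PBS replicates 1 or 4, vector anti-PD-1 replicate 4, mutant PBS replicates 1 or 5 or mutant anti-PD-1 replicate 1, 4 on removal of mutant PBS replicate 3, and 7 on removal of vector anti-PD-1 replicate 1. In the unfolded protein response list Herpud1, of endoplasmic reticulum degradation, was the call (-0.85, SE 0.247, adjusted p = 0.0388). It was 1 of 17 tested genes, against 1.95% of all tested genes with a negative difference. The call count was 0 on removal of vector PBS replicates 1, 2, 4 or 5, vector anti-PD-1 replicates 2 or 5, mutant PBS replicates 1 or 2 or mutant anti-PD-1 replicates 1 or 4, 2 on removal of mutant PBS replicate 3, and 3 on removal of vector anti-PD-1 replicate 1. The median of the unfolded protein response list, -0.12, was 0.06 with TPM.

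All 32 cytosolic ribosomal protein genes had an estimate below 0, with a median of -0.84. Of these 2 passed, against 1.95% of all tested genes with a negative difference: Rpl30 (-1.15, SE 0.348, adjusted p = 0.0456) and Rpl4 (-0.83, SE 0.255, adjusted p = 0.0474), both of the large subunit. The median response of the cytosolic ribosomal protein list was -0.57 in mutant and 0.26 in vector tumours. The list's median difference was -0.66 with TPM, -0.52 with quantile normalization and -0.35 without the 3 least correlated libraries, and its calls were 0 on removal of vector PBS replicates 1, 3, 4 or 5, vector anti-PD-1 replicate 2, mutant PBS replicates 1, 2, 4 or 5 or mutant anti-PD-1 replicates 1, 2 or 5, 1 on removal of vector PBS replicate 2 or vector anti-PD-1 replicates 4 or 5, 4 on removal of mutant anti-PD-1 replicate 4, 7 on removal of vector anti-PD-1 replicate 3, 8 on removal of mutant PBS replicate 3, and 13 on removal of vector anti-PD-1 replicate 1. Summed FPKM of these genes was 17766.9 to 25168.5 in vector PBS and 19332.1 to 61253.2 in vector anti-PD-1 libraries; it was 16145.1 to 21550.6 in mutant PBS and 10669.2 to 15177.7 in mutant anti-PD-1 libraries.

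Stromal genes had large estimates that rested on the M libraries. In the collagen and matrix list the median difference was 1.66, yet no gene had a called positive difference, and Timp1, an inhibitor of matrix metalloproteinases, had a negative one (-1.09, SE 0.332, adjusted p = 0.0458). Of all tested genes 7.4% had a positive and 1.95% a negative call. Fbn1, which encodes fibrillin (2.38, SE 0.769, adjusted p = 0.0578), Mmp3 (2.87, SE 0.957, adjusted p = 0.0645) and Pdgfra, a receptor of fibroblasts (1.53, SE 0.516, adjusted p = 0.0667), came closest without passing. Among M libraries 19 of 22 collagen and matrix genes were called with a median of 3.32, among number-only libraries 1 with a median of 0.57, and without the 3 least correlated libraries 0 with a median of 0.52. Positive collagen and matrix calls were 1 on removal of mutant anti-PD-1 replicate 4, 2 on removal of vector PBS replicate 2 or vector anti-PD-1 replicate 5, 3 on removal of mutant anti-PD-1 replicate 5, 4 on removal of mutant anti-PD-1 replicate 3, 8 on removal of mutant PBS replicate 3, and 11 on removal of vector anti-PD-1 replicate 3, and the Timp1 call was lost without any of vector PBS replicates 1, 3 or 5, vector anti-PD-1 replicates 2, 3 or 5, mutant PBS replicates 1, 2, 4 or 5 or mutant anti-PD-1 replicates 1, 2, 3 or 5. Of 13 tested genes of the TGF-beta pathway 2 were called with a positive difference, against 7.4% of all tested genes: Tgfbr2, the type II receptor (1.53, SE 0.388, adjusted p = 0.0204) and Bmp1, a procollagen protease (1.34, SE 0.411, adjusted p = 0.0481). Bmp1 kept the call in 12 of 42 alternatives (adjusted p 0.0137 to 0.255). The count of the TGF-beta pathway was 0 on removal of mutant anti-PD-1 replicate 2, 1 on removal of vector PBS replicates 1, 3, 4 or 5, vector anti-PD-1 replicates 1, 2 or 4, mutant PBS replicates 1, 2, 4 or 5 or mutant anti-PD-1 replicate 1, and 4 on removal of mutant PBS replicate 3. Among 16 endothelial genes 1 was called, a share near the 7.4% of all tested genes: Icam1 (1.93, SE 0.437, adjusted p = 0.0114), an adhesion gene that many inflamed cells express. Pecam1 (1.34, SE 0.444, adjusted p = 0.0639) and Cdh5 (1.11, SE 0.566, adjusted p = 0.215) did not pass. The endothelial count was 2 on removal of vector anti-PD-1 replicate 2 or mutant anti-PD-1 replicates 1, 4 or 5, 3 on removal of vector anti-PD-1 replicates 3 or 5 or mutant PBS replicate 3, and 4 on removal of mutant anti-PD-1 replicate 3. The median difference of the endothelial list was 1.02, and it was 0.31 without the 3 least correlated libraries.

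Opposite movement in the tumour types was rare. Of the 1308 calls, 4 negative ones had a vector response of 0.5 or more upwards and 14 positive ones a vector response of that size downwards. The negative ones were Cox6a2, Snord100, AL805899.1 and CT033749.1. Cox6a2, a muscle and heart subunit of cytochrome oxidase, averaged 2.3, 5.47, 18.5 and 9.37 FPKM in vector PBS, vector anti-PD-1, mutant PBS and mutant anti-PD-1 tumours, with responses of -1.07 in mutant and 0.85 in vector tumours (-1.93, SE 0.512, adjusted p = 0.0262). Its call was lost among M libraries (adjusted p = 0.168), among number-only libraries (0.0761) and without vector PBS replicate 1, mutant PBS replicate 1 or mutant anti-PD-1 replicate 1, with a range of 0.0025 to 0.168 over the alternatives. The library scores of skeletal muscle genes given above varied within the vector anti-PD-1 and mutant PBS groups, and their part in this value was not tested. Snord100 read 0.0352, 0.0353, 0.0237, 0.0283 and 0.048 FPKM in vector PBS replicates 1 to 5 and 0.023, 5.99, 3.4, 12.4 and 18.4 FPKM in vector anti-PD-1 replicates 1 to 5. Snord100 in mutant tumours read 0.0463, 9.25, 0.0454, 3.08 and 0.0222 FPKM under PBS and 0.0352, 0.0357, 2.12, 0.0372 and 1.13 FPKM under anti-PD-1. Snord100 is a small nucleolar RNA within a ribosomal protein gene, and its values switched between near 0 and several FPKM within 3 of the groups. Its difference (-3.17, SE 0.982, adjusted p = 0.0493) was called in 11 of 40 alternatives.

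**Figure D4:**
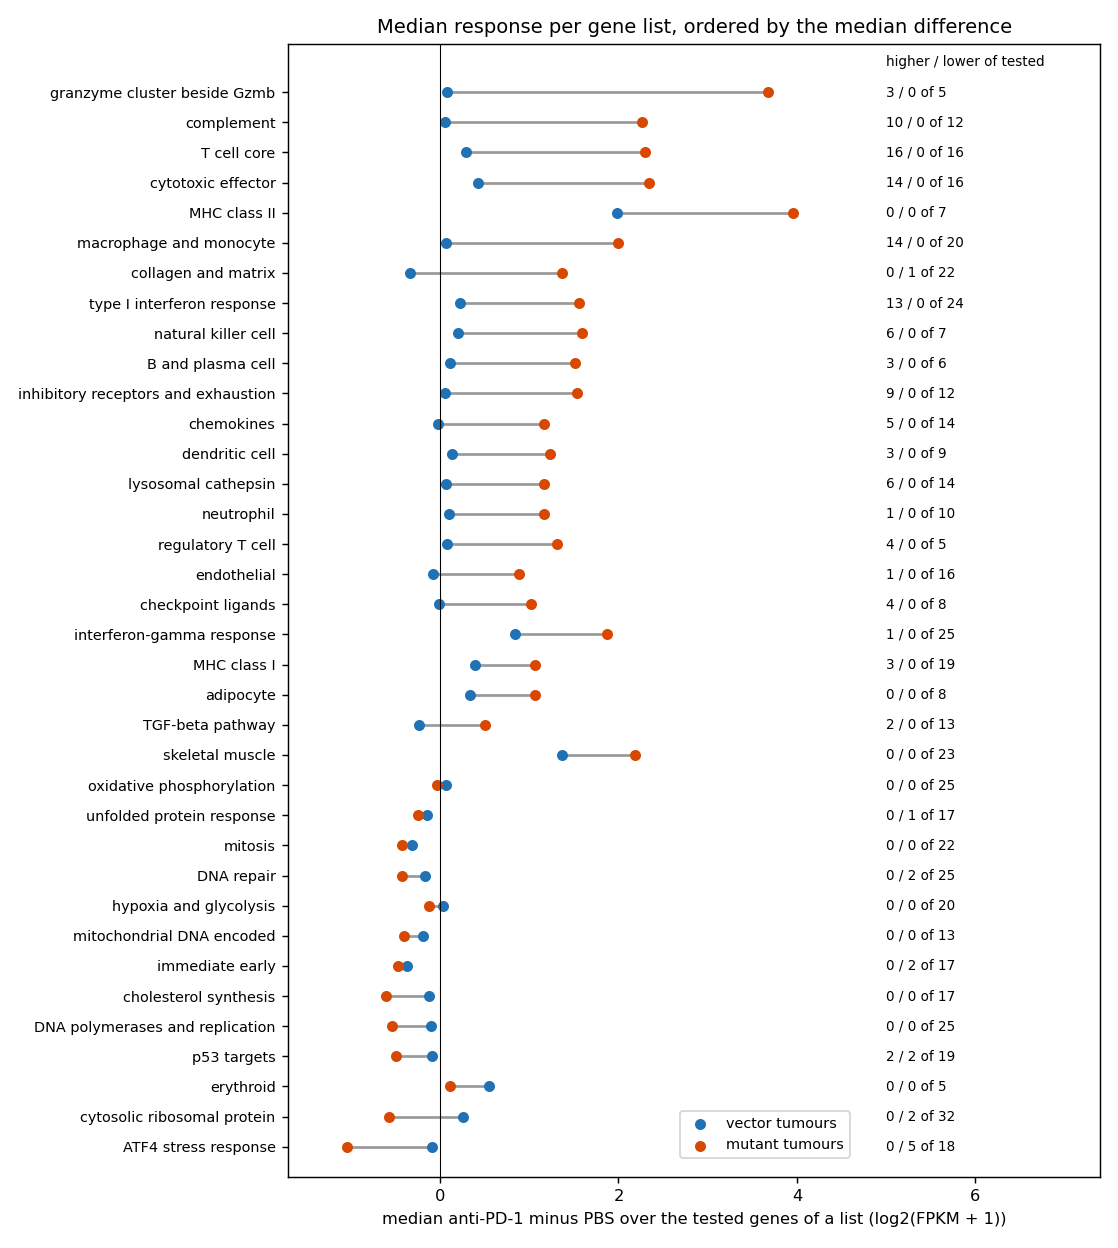
Median anti-PD-1 response over the tested genes of each list in vector (blue) and mutant (orange) tumours, in log2(FPKM + 1) units, for the lists with at least 5 tested genes, ordered by the median difference of responses; the column at the right counts called positive and negative differences of the tested genes. The complement (0.06) and macrophage (0.07) lists sit near 0 in vector tumours, whereas the T cell core (0.29, with a median vector ratio of 3.06), MHC class II (vector median 1.98) and the interferon-gamma response (0.84) do not.

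Low levels near the pseudocount contributed a share of the positive calls. Of the 1035 positive calls 635 (61.4%) averaged at least 1 FPKM in all 4 groups, 325 (31.4%) had both vector means below 1 FPKM and 75 another group below it. Of the 273 negative calls 243, 7 and 23 fell into these classes. Genes with both vector means below 1 FPKM reach the filter mainly through their mutant libraries, so their share of calls (35.2% of 924 tested) is set in part by the filter, against 5.25% of the 12085 genes at 1 FPKM or more in all groups. A pseudocount of 0.1 kept 487 of the 635 well expressed positive calls and 168 of the 325 with low vector means, and a pseudocount of 10 kept 614 and 306. Among the low genes the median difference was 2.26, 1.30 and 0.29 with pseudocounts of 0.1, 1 and 10, and among the well expressed genes 1.65, 1.42 and 0.68. The size of a difference of a low gene is thus set by the pseudocount to a larger extent, and no call changed sign under any pseudocount. By mean FPKM over all libraries, positive calls made up 16.9% of 746 genes below 1 FPKM and 3.35% of 477 genes at 100 FPKM or more, while negative calls went from 0.938% to 4.19%. In all, 876 genes were called with a pseudocount of 0.1 and 1466 with 10.

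**Figure D5:**
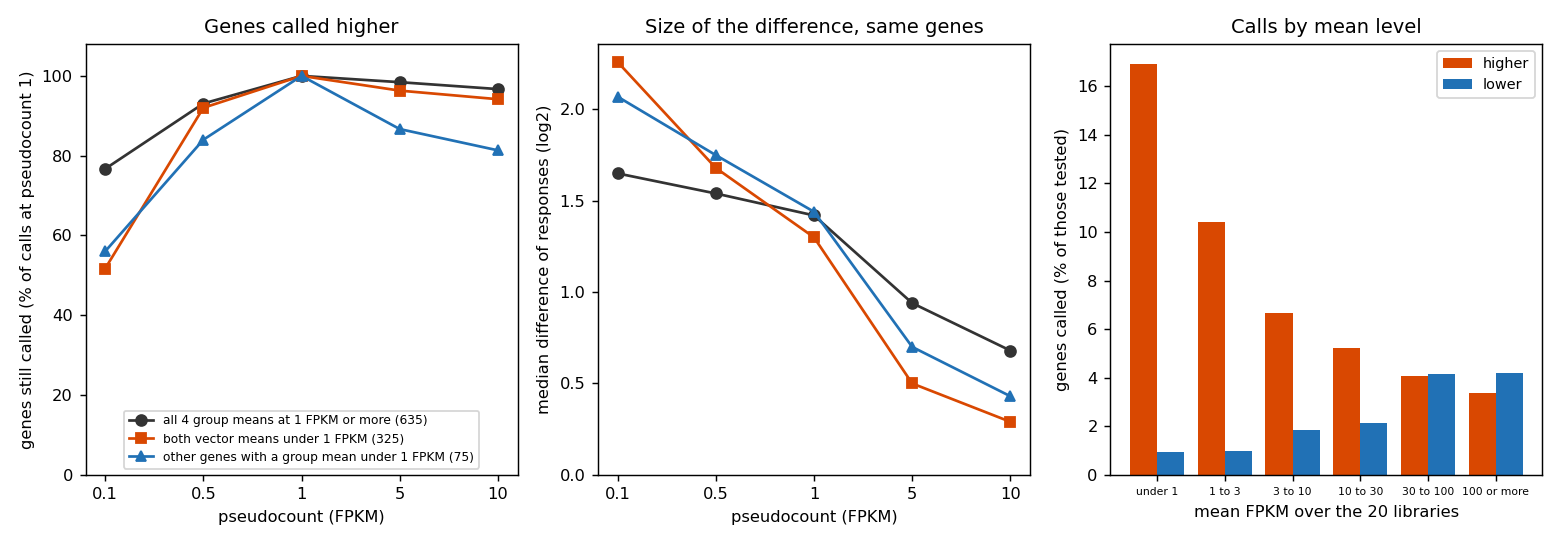
Left, percent of the positive calls still called with each pseudocount, for genes at 1 FPKM or more in all groups, genes with both vector means below 1 FPKM and the other genes; middle, the median difference of responses of the same genes on each log2(FPKM + pseudocount) scale; right, percent of tested genes called in either direction by mean FPKM over the 20 libraries. Genes with low vector means keep 168 of 325 calls with a pseudocount of 0.1, and positive calls are most frequent below 1 FPKM.

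Ratios of group means, which use no pseudocount, were compared for the same calls as a description. Both ratios could be formed for 1026 of the 1035 positive calls, and the mutant ratio of anti-PD-1 over PBS exceeded the vector ratio in 1020 of them (medians 3.95 and 1.07). The exceptions were Cd8a, Ciita, Gm43914, Ifng, Tcrg-C2 and Tlr12, all with vector means below 1 FPKM. For Cd8a, with the ratios given above, the change in FPKM was from 1.96 to 14.9 in mutant and from 0.043 to 0.62 in vector tumours. Ifng, which encodes interferon-gamma, averaged 0.00604, 0.5, 1.25 and 8.02 FPKM in the 4 groups and had ratios of 6.4 and 82.8; its vector PBS mean rests on libraries listed at or near 0, so the vector ratio has no firm size. With a pseudocount of 0.1 each of these 6 genes lost its call (adjusted p = 0.143 for Cd8a and 0.396 for Ifng). A vector ratio of 2 or more was present for 62 of 316 positive calls with both vector means below 1 FPKM and for 6 of 635 at 1 FPKM or more in all groups. In those low genes a vector response near 0 on the log2(FPKM + 1) scale stood beside a relative rise at trace level. By list, median mutant and vector ratios were 8.13 and 3.06 for the T cell core, 4.0 and 1.14 for macrophage, 3.16 and 1.17 for type I interferon and 3.24 and 3.07 for interferon-gamma genes. All 273 negative calls had the lower ratio in mutant tumours (medians 0.57 and 1.06).

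No member was called with all libraries (limma) in the lists for hypoxia and glycolysis (20 tested, median difference -0.26), cholesterol synthesis (17, -0.36), oxidative phosphorylation (25, -0.07), mitochondrial DNA encoded genes (13, -0.28) and skeletal muscle (23, 0.38). At an unadjusted p under 0.05 there were 1, 2, 1, 1 and 0 in the same order. The proliferation marker Mki67 averaged 49.9, 39.1, 48 and 39 FPKM in the 4 groups, with a difference of -0.12, SE 0.321, adjusted p = 0.857. Several of these medians changed sign between settings: hypoxia and glycolysis was 0.39 among number-only libraries, cholesterol synthesis 0.09 there, oxidative phosphorylation 0.11 with TPM, mitochondrial DNA encoded genes 0.06 with quantile normalization, skeletal muscle -0.02 without mutant anti-PD-1 replicate 2 and Mki67 0.05 with TPM. Negative cholesterol synthesis calls were 1 on removal of mutant anti-PD-1 replicates 3 or 5, and 2 on removal of vector anti-PD-1 replicates 1 or 3. With a skeletal muscle score as a further term, 1129 genes were called (938 positive, 191 negative).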

How the data were processed

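RNA of CT26 tumours was sequenced in 20 libraries, and the files list 55335 genes per library. The values are FPKM made by the authors: the submitters' processing notes name STAR 2.5, Cuffnorm, FastQC, DESeq and mm10, with no role or order given, and per the file headers no unit is stated, so the unit was taken from those notes and the values. FPKM keep no read counts, so the depth is unknown and no counting interval is given; strand use is not given in the sources used here, so reads of a gene and an overlapping antisense gene cannot be told apart. FPKM also divide by all mapped fragments, so a library in which few genes take many fragments lowers the others; TPM, upper quartile and quantile scaling were alternatives. Identifiers were matched to GENCODE M21 symbols (55154 matched), from which gene coordinates (GRCm38) were taken.

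Groups came from the labels, and replicate numbers were given in accession order. Limma 3.58.1 (R 4.3.3) with a trend of the spread on the level was fitted to log2(FPKM + 1) of the 13982 genes at 1 FPKM or more in 5 libraries, with 4 group means and the style of the identifier as terms. P-values were adjusted by Benjamini-Hochberg over all genes tested, at 0.05, and a fold change of a low gene is understated on this scale. A gene is called where its adjusted p is below the threshold. Tables and plots were made with Python 3.11.15, numpy 2.4.6, pandas 2.3.3 and matplotlib 3.10.9. The fit was also run on simulated data with independent normal errors, whose spread was set per gene and equal in all libraries. That run therefore does not cover the effect of the libraries that stood apart. Alternatives changed the pseudocount (0.1, 0.5, 5 and 10), transformation, filter, scaling, weights, identifier term and libraries. The comparison and the lists were chosen with earlier results of these data known. Named genes were a panel, the 10 largest differences in each direction, up to 4 members per list with the smallest p, and 10 calls picked by level; members given as not called, and those given to complete a count, were chosen after their values were seen. A gene of the panel is not reported here. Promoters came from a RefSeq table of GRCm38.p6.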

Additional observations from a re-analysis of the deposited data

Results flagged for a closer look

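Responses differed between the tumour types by the test of the difference itself in 1308 genes. Among the genes named, the difference was 2.40 for Cd8a, 2.08 for Cd3e, 3.38 for Gzmb, 2.77 for Prf1, 1.74 for Ifng, 2.81 for Pdcd1, 1.67 for Ctla4, 2.14 for Lag3, 2.10 for Ciita, 3.02 for Adgre1, 4.36 for Gzmf, 4.04 for Ccl5, 3.76 for Gzmd, 3.63 for Ccl8, 3.51 for Gzme, 3.31 for Cd300ld5, 3.15 for Pltp, 3.11 for Nkg7 and 3.04 for Cd300ld3, all positive (log2 units). Negative differences were -3.57 for Car6, -3.17 for Snord100, -2.86 for Cdsn, -2.74 for Areg, -2.73 for Angptl6, -2.14 for Soat2, -2.07 for Trib3, -2.01 for Avil, -1.97 for Chac1 and -1.93 for Cox6a2.

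Among 180 groups of 5 libraries (45 genes in 4 groups), 21 had a highest or lowest library whose gap to the next exceeded 0.71 of the group's range, Dixon's 95% value. Chance flags about 1 in 20 groups. In mutant PBS replicate 3 Cd3e was highest (2.89 FPKM), Ctla4 was highest (2.25 FPKM), Lag3 was highest (5.0 FPKM), Foxp3 was highest (0.533 FPKM), H2-K1 was highest (202.8 FPKM), Ciita was highest (5.19 FPKM), Cdkn1a was lowest (48.0 FPKM), Ccl5 was highest (21.7 FPKM) and Pltp was highest (18.9 FPKM). In vector anti-PD-1 replicate 4 H2-Aa was highest (51.2 FPKM), Cd74 was highest (169.3 FPKM), Ciita was highest (1.51 FPKM) and Soat2 was lowest (6.55 FPKM). In vector anti-PD-1 replicate 1 Cdkn1a was lowest (17.0 FPKM) and Avil was lowest (0.454 FPKM), and in mutant anti-PD-1 replicate 1 Gzmb was highest (129.6 FPKM) and Ifng was lowest (5.1 FPKM). Vector PBS replicate 3 was apart where Cd8a was highest (0.128 FPKM), replicate 5 of that group where Ifng was highest (0.0302 FPKM) and replicate 1 where Soat2 was lowest (6.48 FPKM), and in vector anti-PD-1 replicate 3 Lag3 was lowest (0.296 FPKM). Mutant PBS replicate 3 was the library named most often, high in T cell, chemokine and antigen presentation genes and low in Cdkn1a. The origin of these values was not tested.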

How the results depend on the processing

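No paired analysis was possible because the replicate numbers were given in accession order and pair no libraries. The count of called differences (1308; 1035 positive and 273 negative) stayed within 1.5 times under pseudocounts, TPM, upper quartile and quantile scaling, the square root and the identifier subsets. It was 663 with a filter of 5 FPKM (478 positive), 675 with 1 FPKM in each group (531 positive, 144 negative), 3214 with sample weights (1719 and 1495), 766 with group weights (653 and 113), 387 without the 3 least correlated libraries (302 and 85) and 2311 without these and mutant PBS replicate 3 (885 negative). Negative calls alone were 177 with a pseudocount of 0.1, 142 with no filter, 80 with TPM, 734 with quantile normalization and 165 without the identifier term. Calls with all group means at 1 FPKM or more (878) were 492 with no filter, 1398 with quantile normalization, 2600 and 501 with sample and group weights, and 219 and 1798 without the 3 and the 4 libraries. Mutant response calls (4271) were 2742 with 5 FPKM, 6460 with sample weights and 2526 with a muscle term. Vector response calls (0) were 5 with sample weights, 1 among number-only libraries and 11 without the 4 libraries. Calls between the tumour types under PBS (203) were 98 and 105 with the stricter filters, 100 with TPM, 2710 and 1229 with weights, 12 among M libraries, and 1643 and 2032 without the 3 and the 4 libraries. Leaving out 1 library gave 688 to 2247 called differences, 613 to 1430 positive, 75 to 994 negative, 386 to 1782 with all groups at 1 FPKM, 2754 to 6785 mutant, 0 to 0 vector and 83 to 752 PBS calls. The cause of these shifts was not tested, beyond the smaller number of genes or libraries that a stricter filter or a left-out library brings.

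Over the named genes 4746 alternative values kept direction and side of the threshold, 627 fell short of it, 158 newly passed and 26 changed sign, all in genes not called. Cxcl9 was 0.63 and 0.88 with pseudocounts of 5 and 10, 4.13 on the square root scale, 0.03 and 0.38 without the 3 and the 4 libraries and -0.53 to 0.40 with 1 library left out. Mki67 was 0.05 with TPM, 0.05 with sample weights, 0.07 among number-only libraries, 0.16 and 0.22 without the 3 and the 4 libraries and -0.25 to 0.14 with 1 left out. Without the 3 and the 4 libraries Arg1 was -0.13 and -0.16 (0.17 to 1.05 with 1 left out), and S100a9, an alarmin of neutrophils, -0.52 and -0.38 (0.30 to 1.76). Irf1 was 0.73 without the 4 libraries and -0.16 to 0.56 with 1 left out, and Chek2 0.08 with TPM and 0.01 without the identifier term. FPKM carry no depth, so precision rests on the spread of 5 libraries per group.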

Other observations

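Of 10 tested members of the neutrophil list 1 was called with a positive difference, a share near the 7.4% of all tested genes: Csf3r, the receptor of granulocyte colony-stimulating factor (2.39, SE 0.538, adjusted p = 0.0113), and the count was 2 on removal of vector anti-PD-1 replicate 3 or mutant anti-PD-1 replicate 5. The alarmin genes S100a8 (1.15, SE 1.05, adjusted p = 0.528) and S100a9 (1.03, SE 1.11, adjusted p = 0.606) and the chemokine receptor gene Cxcr2 (1.56, SE 0.595, adjusted p = 0.101) did not pass, and the median difference of the neutrophil list was 1.06 with all libraries and 0.18 without the 3 least correlated.

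Tissue next to the tumour was represented by small lists. None of 8 adipocyte genes (median difference 0.65), 5 erythroid genes (-0.48) or 2 lymphatic vessel genes (0.39) was called by limma with all libraries; 1, 0 and 0 had an unadjusted p under 0.05. The adipocyte count was 1 on removal of vector anti-PD-1 replicate 3, mutant PBS replicate 3 or mutant anti-PD-1 replicate 3. Keratin genes of the epithelial and colon list did not pass either: Krt18 was -1.36, SE 0.48, adjusted p = 0.0774 and Krt19 -1.19, SE 0.378, adjusted p = 0.0537; 1 negative call was made without vector PBS replicate 4, vector anti-PD-1 replicates 2 or 3, mutant PBS replicates 1 or 3 or mutant anti-PD-1 replicate 3. Of the Schwann cell and nerve list, Mbp, which encodes myelin basic protein, was the call of 3 tested genes (0.92, SE 0.279, adjusted p = 0.0456). Positive calls made up 7.4% of all tested genes. The Schwann cell and nerve count was 0 on removal of vector PBS replicates 1, 2, 3, 4 or 5, vector anti-PD-1 replicates 2 or 4, mutant PBS replicates 1, 2, 4 or 5 or mutant anti-PD-1 replicates 1 or 2, and 2 on removal of vector anti-PD-1 replicate 3 or mutant anti-PD-1 replicate 5.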
